A study of Solanum lycopersicum with 86 samples.

Results

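The 197 genes described here were high in tomato internodes 6 and 30 h after a light treatment began and low after 24 and 48 h. They were chosen by their level over all libraries and their difference between times in white light internodes, on log2(value + 1), where a value is a read count scaled for sequencing depth. A member had a mean log2 value of at least 1 over all 86 libraries. In white light internodes of both Moneymaker and M82, its mean of the 6 and 30 h group means also exceeded its mean of the 24 and 48 h group means by at least 1, a 2-fold difference on this scale. Of the 23050 genes in the table, 18429 had the required mean level and 200 met the whole rule. The rule names 7 identifiers to leave out. Of these, 6 are in the table and 3 met its numerical conditions, which left 197 members. How the members behaved under far-red light and in pith played no part in the choice, apart from the floor on their mean level.

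The 6 and 30 h harvests lie a day apart, as do the 24 and 48 h harvests, so each pair falls at the same time of day if the plants were handled alike. Many plant genes cycle over the day. A circadian clock of transcription factors that repress each other in turn keeps this cycle, and light and darkness reset it each day. Targets of the plant clock include genes of photosynthesis, starch use, hormone signalling and stem growth, and phytochrome photoreceptors, which sense red and far-red light, pass light signals to the clock. The sources used here do not give the hour of the day at which treatment began, so the members are described by hours after treatment start. The files list genes by Solyc identifier without names, and 0 of the identifiers were found in the reference gene table, so names and roles cannot be stated.

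The study sequenced polyA RNA of the first stem internode of seedlings, which lies above the cotyledons and below the first true leaf, and of the pith, the tissue at its core. All plants were wildtype tomato (Solanum lycopersicum) of the cultivars Moneymaker or M82, grown from seed in white light before treatment, with 16 h of light and 8 h of darkness a day, at 20 °C and 70% humidity. The far-red groups (FR) received white light of 200 PAR with far-red light added, to a red to far-red ratio of 0.21, and the white light groups (WL) received the same white light alone. Internodes were taken at 6, 24, 30 and 48 h and pith at 30 and 48 h, and whole internodes contain pith. Moneymaker gave 19 FR and 13 WL internode libraries and 8 FR and 6 WL pith libraries. M82 gave 11 FR and 15 WL internode libraries and 5 FR and 9 WL pith libraries. Each of the 24 groups held 2 to 6 libraries, which the labels call biological replicates and number by batch of plants. How many plants went into a library is not stated.

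Libraries held 0.769 to 22.1 M reads in the genes of the table (median 2.98 M). The treatment field of every Moneymaker WL sample reads FR, whereas titles and sample codes give WL. The titles were used. In 12 libraries expression went against a label, and the results below are given with and without them where that matters. A score of 20 genes for each cultivar, taken from FR internodes, placed 9 libraries with the other cultivar: 6 labelled M82 WL and 3 labelled Moneymaker. It also lay near 0, between the cultivars, in the libraries labelled Moneymaker FR internode 48 h replicates 7 and 8 (0.14 and -0.19). Its genes were those that best separated the labelled FR internodes of the cultivars, so FR internodes were unlikely to be placed with the other cultivar. The members were also set against the 271 genes that the mirrored rule selects, those high at 24 and 48 h. In 3 libraries labelled 48 h and WL, the members' mean log2 level minus that of the mirrored genes lay above the range of the FR internodes at 24 and 48 h. In Moneymaker internode replicate 1 and M82 pith replicate 6 the members stood above the mirrored genes, and in M82 pith replicate 5 they stood slightly below them (difference -0.18), between the ranges of the high and the low times. They were recognised by the members' own levels, so any value without them favours a difference between times by construction. The limits of this time check were set by the FR internodes themselves, so it could mark no FR internode. Leaf, vascular or other cell type markers could not be checked without gene names. In these bulk tissue samples, fewer cells of a type and less RNA per cell cannot be told apart.

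The values that chose the set are given as a description only. In WL internodes the log2 difference between 6 and 30 h and 24 and 48 h had a median over members of 1.48 in Moneymaker and 1.62 in M82. The largest differences were those of Solyc03g083770 (4.28 in Moneymaker and 4.76 in M82) and Solyc06g006000 (4.14 and 5.22 in the same order). Just inside the threshold lay Solyc02g062140 (1.00 and 1.46) and Solyc03g119150 (1.00 and 1.03). Just outside it lay Solyc01g087790 (1.47 and 0.99) and Solyc03g096780 (0.98 and 1.13). The set was sensitive to where the threshold was placed. It held 80 genes at a threshold of 1.5 and 352 at 0.75. With the label-discordant WL libraries left out of the rule it held 230 genes, 172 of them among the 197.

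The level of the set in a library was the mean log2(value + 1) over the 197 members. It fell into a high and a low range by time in FR internodes and pith of both cultivars, apart from M82 WL pith at 48 h. In WL internodes, which chose the members, a difference between times was set by the rule. Moneymaker WL internodes at 48 h still ran from 3.10 to 5.00. In Moneymaker FR internodes it was 5.03 to 5.28 at 6 h, 3.06 to 3.27 at 24 h, 4.88 to 5.03 at 30 h and 3.25 to 3.79 at 48 h. In M82 FR internodes it was 4.73 to 5.23 at 6 h, 3.24 to 3.35 at 24 h, 4.79 to 4.97 at 30 h and 3.43 to 3.60 at 48 h. The 6 and 30 h libraries thus lay above every 24 and 48 h library of FR internodes, and FR internodes had entered the choice of members through the floor on the mean level only. In Moneymaker pith the level was 4.78 to 5.03 under FR and 5.11 to 5.17 under WL at 30 h. At 48 h it was 3.14 to 3.33 under FR and 3.24 to 3.36 under WL. In M82 pith it was 4.81 and 4.99 under FR and 4.79 to 5.21 under WL at 30 h. At 48 h it was 3.12 to 3.29 under FR and 3.01 to 4.85 under WL, and the upper end of that last range came from replicate 6 (4.85) and replicate 5 (4.52). Pith libraries at 30 h and at 48 h did not overlap in Moneymaker, and in M82 they overlapped only through replicate 6.

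**Figure D1:**
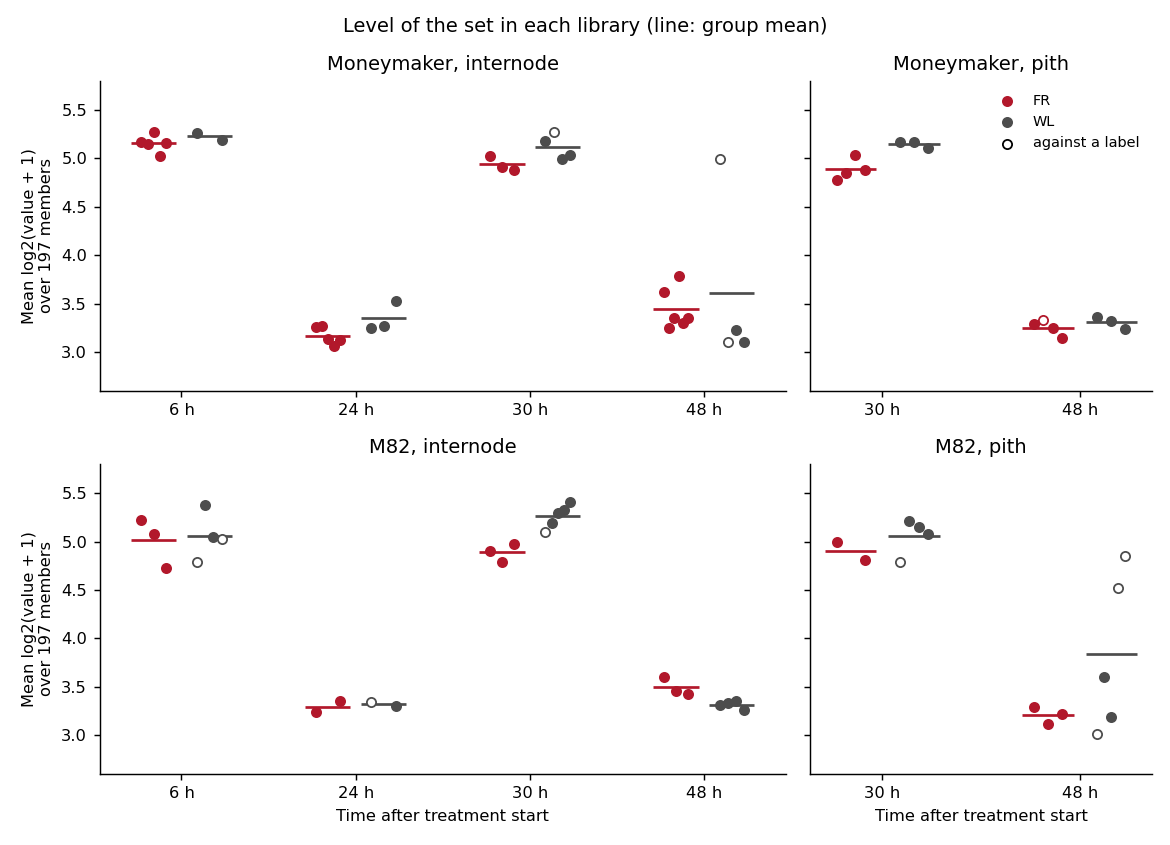
Mean log2(value + 1) over the 197 members in each library (points) and group mean (lines), by hours after treatment start, for FR and WL, both cultivars and both tissues; open points are the 12 label-discordant libraries. FR internodes at 24 and 48 h lie between 3.06 and 3.79 and those at 6 and 30 h between 4.73 and 5.28; the WL internodes chose the members. The open point at 5.00 is Moneymaker WL internode 48 h replicate 1, and those at 4.52 and 4.85 are M82 WL pith 48 h replicates 5 and 6.

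In FR internodes, most members were again higher at 6 and 30 h than at 24 and 48 h. In Moneymaker 162 of the 197 rose (82.2%) and 0 fell at an adjusted p below 0.05, against 3.16% of the 19029 genes tested that were called higher there. The median log2 difference over members was 1.59 (quartiles 1.16 and 2.14, median SE 0.34), and that over all tested genes was -0.02. In M82 127 members rose (64.5%) and 0 fell, against 1.9% of all tested genes called higher, with a median log2 difference of 1.49 over members (median SE 0.44) and -0.02 over all genes. At an unadjusted p below 0.05, 183 members passed in Moneymaker and 155 in M82. The tests were limma fits over all genes with Benjamini-Hochberg adjustment, and the p-values measure the spread between libraries, which may be partly technical. The rise was called and at least 2-fold in 155 members in Moneymaker and 123 in M82. Every 6 and 30 h library lay above every 24 and 48 h library for 88 members in Moneymaker (44.7%), against 0.736% of all tested genes, and for 103 members in M82 (52.3%), against 1.46%.

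Across the 197 genes, the FR differences of Moneymaker and M82 correlated with a Pearson r of 0.82 and a Spearman rho of 0.78. The difference under FR and that under WL, which chose the members, had an r of 0.85 in Moneymaker and 0.73 in M82 (rho 0.74 and 0.67 in the same order). These are descriptions across genes, which are not independent replicates, and a gene's level and depth of coverage enter both axes.

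**Figure D2:**
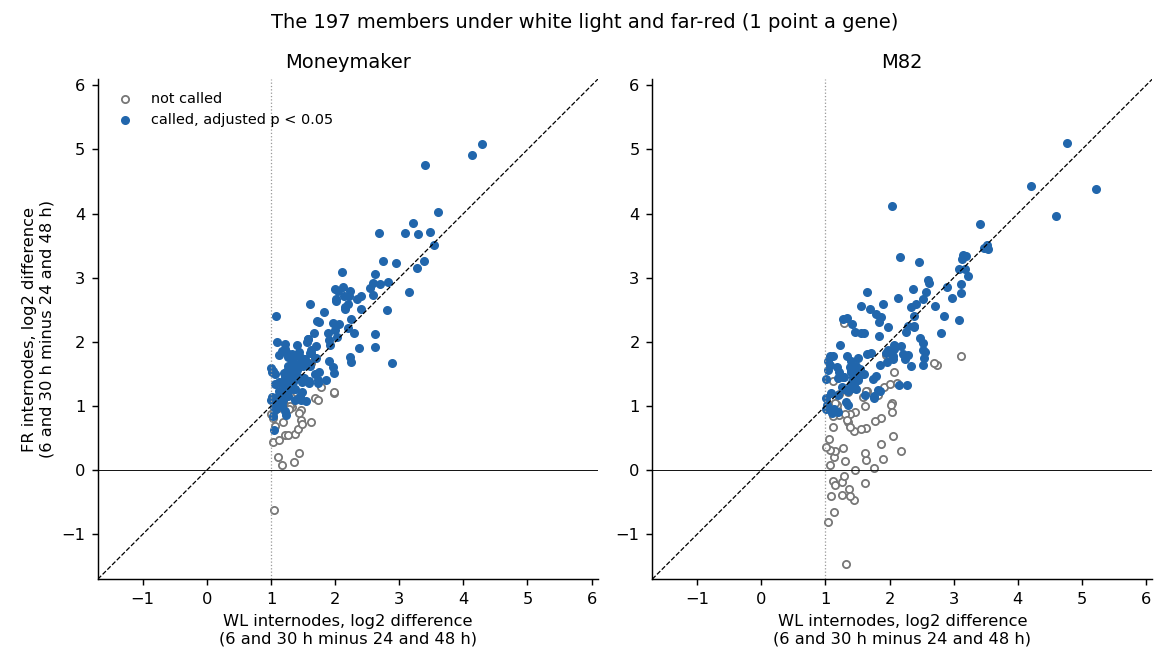
Log2 difference of each member between 6 and 30 h and 24 and 48 h in FR internodes (vertical axis) against WL internodes (horizontal axis), for Moneymaker and M82; filled points were called under FR at an adjusted p below 0.05, the dashed line marks equal differences and the dotted line the threshold of 1 that chose the members. In Moneymaker 196 and in M82 183 of the 197 points lie above 0 on the vertical axis.

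Solyc03g083770, the member with the largest WL difference in both cultivars by the smaller of its 2 values, showed the pattern in single libraries. Its values in Moneymaker FR internodes were 688, 681, 623, 863 and 437 at 6 h and 472, 604 and 863 at 30 h, against 8.80, 23.1, 8.15, 11.3 and 15.7 at 24 h. At 48 h they had a lowest of 11.6, a highest of 206 and 12.1, 12.5, 15.3 and 41.5 between. The libraries of the high and low times did not overlap, and replicate 5 at 48 h stood above the other low ones. This replicate also had the highest set level at that time (3.79). In M82 FR internodes its values were 599, 614 and 715 at 6 h and 523, 962 and 565 at 30 h, against 19.2 and 17.7 at 24 h and 20.3, 13.8 and 19.5 at 48 h. The log2 difference was 5.08 ± 0.54 (SE) in Moneymaker, with an adjusted p of 6.74e-11 from limma, and 5.10 ± 0.70 in M82, with an adjusted p of 3.82e-07.

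Solyc01g100230 had the smallest p of all members in both cultivars. Its values at 6 and 30 h in Moneymaker FR internodes ran from 36.7 to 74.1 with a median of 54.6, against 0.20 to 10.5 with a median of 5.09 at 24 and 48 h (8 and 11 libraries). In M82 they were 90.2, 88.6 and 84.9 at 6 h and 55.8, 65.4 and 75.7 at 30 h, against 6.63 and 9.21 at 24 h and 7.33, 5.66 and 1.86 at 48 h. Neither cultivar had an overlapping library. The log2 difference was 3.70 ± 0.30 in Moneymaker (adjusted p = 1.4e-15, limma) and 3.47 ± 0.38 in M82 (11.1-fold, adjusted p = 1.16e-09).

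The second named member in each cultivar behaved alike. Solyc08g062960 ran from 53.2 to 147 (median 80.6) at 6 and 30 h in Moneymaker FR internodes, against 6.04 to 20.0 (median 9.97) at 24 and 48 h, a log2 difference of 2.80 ± 0.26 (adjusted p = 2.73e-13, limma). In M82 its difference was 2.25 ± 0.33 (adjusted p = 1.08e-06). Solyc06g083470 ran from 82.2 to 287 (median 177) at 6 and 30 h in M82 FR internodes, against 4.25 to 31.5 (median 21.6) at 24 and 48 h. Its difference was 3.32 ± 0.41 in M82 (adjusted p = 6.27e-08), beside 2.67 ± 0.32 for Moneymaker (adjusted p = 1.32e-09).

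Taking both cultivars, 123 members (62.4%) rose under FR in both, 39 in Moneymaker only, 4 in M82 only and 31 in neither. Each count is of calls and not of a tested difference. At most 1.9% of all tested genes, the share called higher in M82, can have been called higher in both. The difference between the cultivars was called for 0 members with limma, against 0% of all tested genes, and with edgeR and DESeq2 also for 0. At an unadjusted p below 0.05, 8 members passed with limma, 5 with edgeR and 7 with DESeq2. Chance alone would pass a share of about 0.05 of members. The median log2 difference, Moneymaker minus M82, was 0.14 with a median SE of 0.56. A p that misses the threshold does not show that the cultivars were alike. Members called in neither had a median of 28.1 reads per library, against 112 in those called in both. In M82 the 24 h group rests on 2 libraries that differed from each other. The member Solyc06g035530, which was higher under FR than WL in pith as described further on, had a value of 38.1 in replicate 2 and 0.0 in replicate 3, beside 0.39 and 0.32 in the 2 M82 WL internodes at 24 h. Without replicate 3, 95 members were called in M82, all of them among the 127.

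Only 1 member had a negative difference in Moneymaker FR internodes, Solyc06g009940, which also had the lowest difference in M82. It was picked out after its values were seen. Its values in Moneymaker ran from 0.42 to 1.91 at 6 h and were 0.86, 1.09 and 29.1 at 30 h, and in the low phase of the set they ran from 2.86 to 13.6 at 24 h and 0.64 to 15.8 at 48 h. In M82 it was 2.82, 0.38 and 0.0 at 6 h and 2.83, 52.7 and 2.34 at 30 h, against 7.12 and 82.2 at 24 h and 1.29, 1.46 and 15.1 at 48 h. Single libraries were high at 24, 30 and 48 h, whereas no 6 h library exceeded 2.82. The difference did not pass the test in Moneymaker (-0.63 ± 0.69, adjusted p = 0.773, limma) or in M82 (-1.46 ± 0.90, adjusted p = 0.446).

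Within FR internodes the first low time was lower and the first high time higher than those a day later for most members. By group means, 132 members were highest at 6 h in Moneymaker, 62 at 30 h and 3 at 24 h. In M82 123 were highest at 6 h, 66 at 30 h, 5 at 24 h and 3 at 48 h. The lowest time was 24 h for 143 members in Moneymaker and 123 in M82, and 48 h for 53 and 55 in the same order. A high time of the set was the lowest time for 1 member in Moneymaker, at 6 h, and for 18 at 6 h and 1 at 30 h in M82. The M82 group at 6 h held 3 libraries, and replicate 5 had the lowest set level (4.73, against 5.08 and 5.23). Some members lowest there varied widely between the libraries, such as Solyc05g012580 (SD 3.20 on the log2 scale), and others less, such as Solyc00g500141 (SD 0.695). Whether 1 library set the count of 18 was not tested. The median log2 difference over members between 6 and 24 h was 1.93 in Moneymaker and 1.81 in M82, and that between 30 and 48 h was 1.29 in Moneymaker and 1.28 in M82. In WL internodes the medians for 6 and 24 h and for 30 and 48 h were 1.74 and 1.37 in Moneymaker, and 1.60 and 1.76 in M82. The Moneymaker WL value for 30 and 48 h was 1.68 without the libraries against a label.

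The test of 30 h against 6 h under FR called no single member. In Moneymaker it called 0 members with limma, against 0.0105% of all tested genes, 0 with edgeR and 0 with DESeq2, and at an unadjusted p below 0.05 the counts were 12, 12 and 14 in this order of tools. In M82 it called 0 members with limma, against 0.021% of all tested genes, and likewise 0 with edgeR and DESeq2, with 27, 21 and 25 at an unadjusted p below 0.05. The 30 h minus 6 h difference was negative for 133 members in Moneymaker (median log2 difference -0.23, median SE 0.53) and for 124 in M82 (median -0.26, median SE 0.59). Over all tested genes its median was -0.03 in Moneymaker and -0.02 in M82.

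Most members were also higher at 30 h than at 48 h in pith. Averaged over FR and WL, 154 members were called higher at 30 h than at 48 h in Moneymaker pith (78.2%), against 2.55% of all tested genes, and 0 were called lower. In M82 pith 123 were called higher (62.4%), against 1.64% of all tested genes, and 0 lower. The median log2 difference over members was 1.55 in Moneymaker (median SE 0.39) and 1.36 in M82 (median SE 0.41), and the medians over all tested genes were -0.02 and -0.01 in the same order. At an unadjusted p below 0.05, 173 members passed in Moneymaker and 155 in M82. The difference was called and at least 2-fold for 149 members in Moneymaker and 112 in M82. In the fit with only the 4 groups of M82 pith, 60 members were called, all of them among the 123. In that fit 151 members passed an unadjusted p of 0.05. The share of all tested genes called in that fit is not set beside these counts.

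Every 30 h pith library lay above every 48 h one for 93 members in Moneymaker (47.2%), against 0.972% of all tested genes. In M82 this held for 22 members (11.2%), against 0.3% of all tested genes. Without the M82 WL replicates 5 and 6 at 48 h, it held for 91 members (46.2%), against 1.11% of all tested genes, and those replicates were identified by these genes. Leaving out the 12 label-discordant libraries gave 153 called members in Moneymaker pith and 134 in M82 pith. By light, the median log2 difference between 30 and 48 h was 1.45 under FR and 1.72 under WL in Moneymaker, and 1.60 under FR and 1.15 under WL in M82. The M82 WL median was 1.62 without the 12 libraries.

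**Figure D3:**
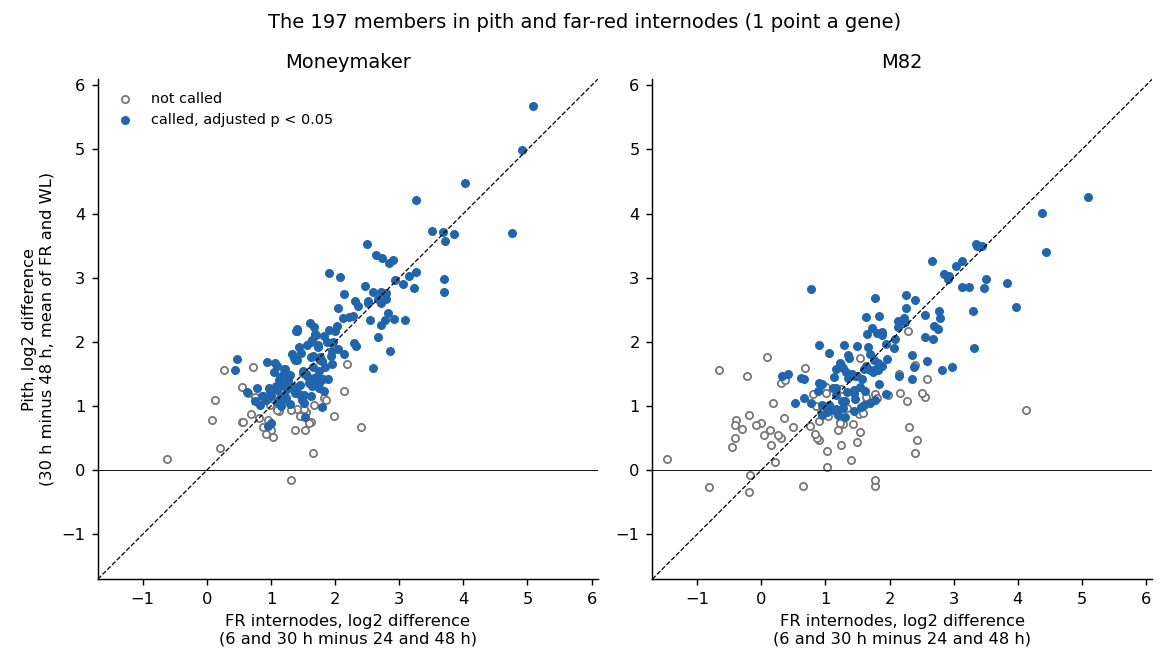
Log2 difference of each member between 30 and 48 h in pith, averaged over FR and WL (vertical axis), against its difference between 6 and 30 h and 24 and 48 h in FR internodes (horizontal axis), for Moneymaker and M82; filled points were called in pith at an adjusted p below 0.05 and the dashed line marks equal differences. In Moneymaker 196 and in M82 191 of the 197 points lie above 0 on the vertical axis, and the points follow the line with r = 0.83 in Moneymaker and 0.71 in M82.

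In Moneymaker pith the smallest p values belonged to Solyc01g108910 and Solyc08g062960. Solyc01g108910 had values of 40.0, 38.5, 41.5 and 42.6 under FR and 44.9, 35.6 and 45.5 under WL at 30 h. At 48 h it had 2.47, 1.23, 1.59 and 2.55 under FR and 0.36, 2.30 and 0.24 under WL. All 7 libraries at 30 h lay far above all 7 at 48 h, and the log2 difference was 4.22 ± 0.46 (18.6-fold, adjusted p = 2.6e-10, limma). In M82 pith its difference was 2.85 ± 0.48 (adjusted p = 2.17e-05), where WL replicates 5 and 6 at 48 h stood at 30.0 and 51.8, within the 30 h range of 20.5 to 74.9. Solyc08g062960 had 74.7, 37.1, 78.3 and 76.4 under FR and 92.9, 59.7 and 70.6 under WL at 30 h. At 48 h it had 10.3, 7.35, 8.46 and 12.3 under FR and 9.66, 12.4 and 9.42 under WL, so that its groups did not overlap either. Its log2 difference was 2.67 ± 0.29 in Moneymaker pith (adjusted p = 2.62e-10) and 2.54 ± 0.31 in M82 pith (adjusted p = 1.27e-08).

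In M82 pith Solyc10g078920 and Solyc01g100000 had the smallest p values. Solyc10g078920 had 155 and 137 under FR and 97.5, 142, 107 and 102 under WL at 30 h. At 48 h it had 8.80, 16.4 and 16.1 under FR and 17.0, 5.98, 11.2, 37.6 and 20.0 under WL. Here the 30 h libraries all exceeded the 48 h ones, WL replicates 5 and 6 included, and the log2 difference was 3.06 ± 0.36 (8.34-fold, adjusted p = 1.27e-08, limma). Solyc01g100000 had 12.6 and 16.2 under FR and 8.48, 32.0, 16.4 and 23.4 under WL at 30 h, against 0.30, 0.0 and 2.30 under FR and 0.0, 0.0, 0.70, 3.52 and 2.73 under WL at 48 h. Its log2 difference was 3.26 ± 0.39 (adjusted p = 1.27e-08). In Moneymaker pith the differences were 2.96 ± 0.34 for Solyc10g078920 (adjusted p = 1.15e-09) and 3.35 ± 0.37 for Solyc01g100000 (adjusted p = 3.11e-10).

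Solyc03g083770 and Solyc06g006000, which led the set in WL internodes, also had the largest pith differences by the smaller of both cultivars. Solyc03g083770 differed by 5.68 ± 0.61 in Moneymaker pith (adjusted p = 3.62e-10, limma) and 4.27 ± 0.64 in M82 pith (adjusted p = 2.92e-06). In M82 WL pith at 48 h its values were 10.2, 7.97 and 15.4 in replicates 1, 2 and 4, and 221 and 569 in replicates 5 and 6. Solyc06g006000 differed by 4.99 ± 0.68 in Moneymaker pith (adjusted p = 1.33e-07) and 4.01 ± 0.71 in M82 pith (adjusted p = 7.54e-05).

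At the other end, 34 members were called in pith of neither cultivar, against 114 called in both (57.9%), 40 in Moneymaker only and 9 in M82 only. At most 1.64% of all tested genes, the share called higher in M82 pith, can have been called higher in both. Among members of at least the median level, the nearest to 0 in both cultivars were Solyc08g060920 and Solyc11g005380. Solyc08g060920 differed by 0.78 ± 0.40 in Moneymaker pith (adjusted p = 0.282, limma) and 0.67 ± 0.42 in M82 pith (adjusted p = 0.491). Solyc11g005380 differed by 0.81 ± 0.42 (adjusted p = 0.28) and 0.50 ± 0.44 (adjusted p = 0.667) in the same order of cultivars. The 1 member with a negative difference in Moneymaker pith, Solyc12g006850, was named after its values were seen. It had 0.94, 0.0, 8.67 and 1.09 under FR and 6.47, 3.01 and 3.40 under WL at 30 h, against 2.29, 2.45, 2.91 and 2.32 under FR and 6.44, 2.01 and 3.06 under WL at 48 h. These values overlapped throughout, and the difference was -0.15 ± 0.42 (adjusted p = 0.896), whereas in Moneymaker FR internodes the gene rose by 1.32 ± 0.37 at 6 and 30 h (adjusted p = 0.0134).

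The 4 comparisons between times, FR internodes and pith in each cultivar, share 1 fit and batches of plants. Over them, 92 members were called in all 4 (46.7%), 175 in at least 1 and 22 in none. At most 1.64% of all tested genes, the share called higher in M82 pith, can have been called higher in all 4. The 22 had a median of 30.6 reads per library and a median mean level of 2.53 on the log2 scale, against 136 reads and 4.80 for the 92. Reads of the 22 ran from 6.12 (Solyc01g010510) to 4940 (Solyc02g094300). Solyc05g012580 (368) and Solyc08g060920 (300) were also above the median of all members, 91.9. Whether read depth decided these calls was not tested.

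The 30 to 48 h difference in FR pith was set against that in FR internodes of the same cultivar, which shows where pith departs from the whole internode that contains it. The median over members of pith minus internode was 0.16 in Moneymaker (median SE 0.72) and 0.34 in M82 (median SE 0.88). In Moneymaker 0 members were called with limma, against 0% of all tested genes, and in M82 0 were called, against 0%. edgeR and DESeq2 also called 0 members in each cultivar. At an unadjusted p below 0.05, limma, edgeR and DESeq2 passed 7, 5 and 5 members in Moneymaker and 11, 9 and 8 in M82. Chance alone would pass a share of about 0.05 of members. Under FR the median log2 difference in level, pith minus internode, was 0.00 at 30 h and -0.14 at 48 h in Moneymaker, and 0.15 at 30 h and -0.23 at 48 h in M82.

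The FR and WL pith libraries were compared as averages over 30 and 48 h. In Moneymaker pith 2 members (1.02%) were called higher under FR than WL, against 0.184% of all tested genes, and 3 (1.52%) lower, against 0.321%. At an unadjusted p below 0.05, 33 members passed. In M82 pith 3 (1.52%) were called higher, against 2.28% of all tested genes, and 15 (7.61%) lower, against 1.43%. The share called higher in M82 rests on 3 members, and whether it differs from that of all tested genes was not tested. At an unadjusted p below 0.05, 52 members passed in M82. All 5 members called in Moneymaker were also called in M82, with the same sign. The FR minus WL difference had a median over members of -0.13 in Moneymaker and -0.38 in M82, against -0.04 and 0.01 over all tested genes in the same order. The M82 count of 18 moved in both directions, and the counts that follow are of members alone, without shares of all tested genes. It was 25 without WL 48 h replicate 4 and 35 with DESeq2. It was 8 without the libraries against their time label (4 higher and 4 lower), 11 without all 12 label-discordant libraries (3 higher and 8 lower), 5 without FR 30 h replicate 3, 6 without FR 48 h replicate 4, 10 without WL 48 h replicate 6 and 3 in the fit with the 4 groups of M82 pith alone. The Moneymaker count was 2 without WL 48 h replicate 4, 2 without WL 30 h replicate 5, and 3 without WL replicate 6 at 30 h or at 48 h.

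By time, the median difference over members, FR minus WL, was -0.20 at 30 h and -0.06 at 48 h in Moneymaker pith, and -0.05 at 30 h and -0.55 at 48 h in M82 pith. At 48 h in M82 167 members were lower under FR by their group means. Without the 12 label-discordant libraries, 2 of which are the WL pith libraries whose members stood high at 48 h, this median was -0.14, with 118 members lower.

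Solyc06g035530 and Solyc04g050625 had the smallest p values in each direction in both cultivars. Solyc06g035530 ran from 9.07 to 35.5 (median 12.6) in 8 Moneymaker FR pith libraries, against 0.0 to 9.04 (median 1.46) in 6 WL libraries. In M82 it had 37.7 and 30.7 at 30 h and 14.5, 15.2 and 24.5 at 48 h under FR, against 0.0 to 3.41 (median 1.47) in 9 WL libraries. Its FR and WL libraries did not overlap in either cultivar, though the margin was narrow in Moneymaker. The log2 fold change was 2.50 ± 0.48 in Moneymaker (adjusted p = 9e-04, limma) and 3.58 ± 0.50 in M82 (adjusted p = 1.26e-06). Its 30 h minus 48 h difference in pith did not pass the test (0.63 ± 0.48, adjusted p = 0.516, in Moneymaker and 0.48 ± 0.50, adjusted p = 0.738, in M82).

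Solyc04g050625 ran from 0.0 to 4.37 (median 1.26) in Moneymaker FR pith, against 4.31 to 76.5 (median 21.1) in WL pith. In M82 FR pith it had 3.52 and 0.28 at 30 h and 0.0, 0.40 and 1.53 at 48 h, against 0.70 to 55.8 (median 10.6) in WL pith. In Moneymaker the highest FR library just passed the lowest WL library, and in M82 WL 48 h replicate 4 lay within the FR range. The log2 fold change was -3.13 ± 0.50 in Moneymaker (adjusted p = 4.16e-05, limma) and -2.77 ± 0.53 in M82 (adjusted p = 0.000652). Without FR 30 h replicate 3 the M82 value was -2.32 with an adjusted p of 0.0579. Its next neighbour by identifier, Solyc04g050620, is also a member.

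**Figure D4:**
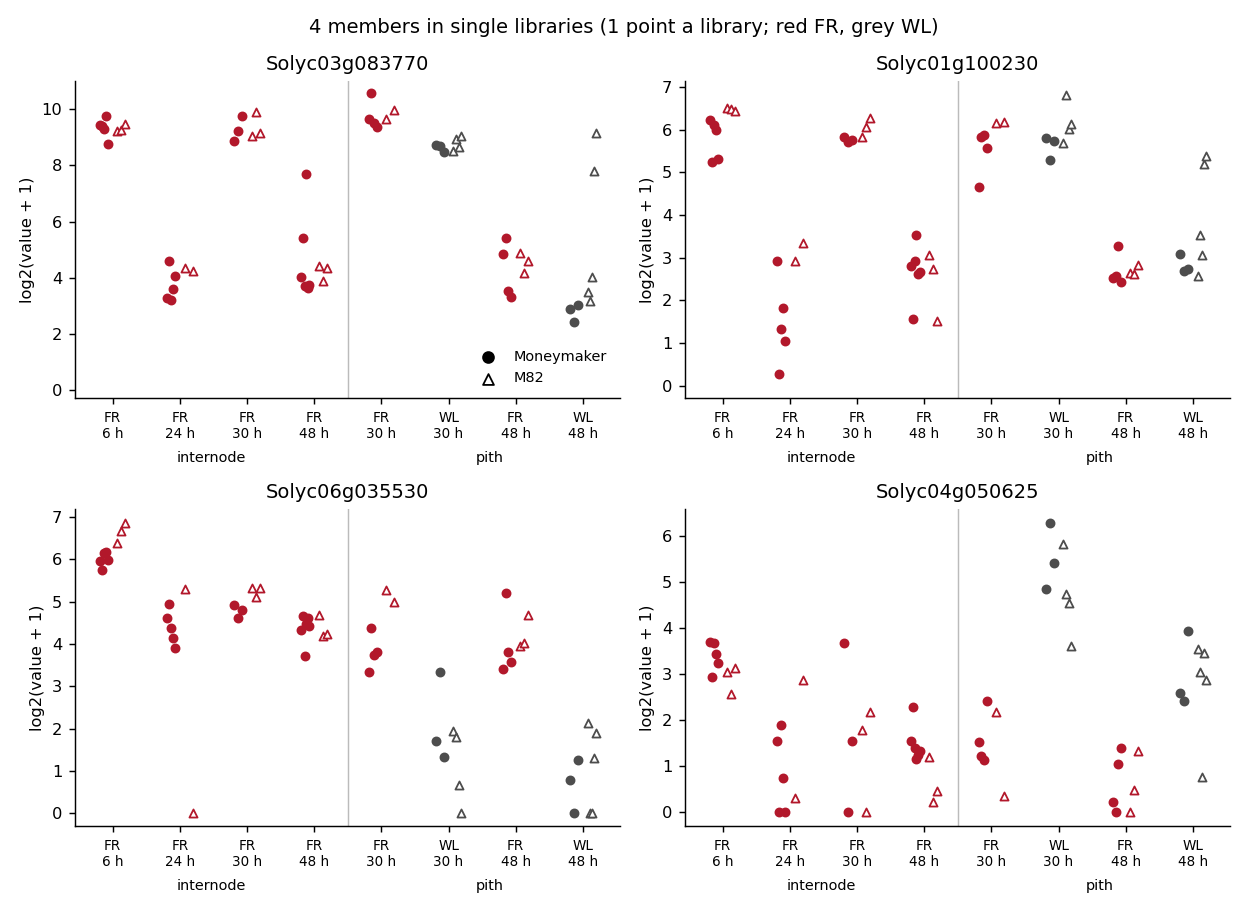
Log2(value + 1) of 4 members in single libraries (points), in FR internodes at 4 times and in FR and WL pith at 2 times; circles are Moneymaker, open triangles M82, red FR and grey WL. Solyc03g083770 and Solyc01g100230 split by time, with M82 WL pith 48 h replicates 5 and 6 high. Solyc06g035530 splits by light in pith, and 1 M82 FR internode at 24 h has no reads of it. Solyc04g050625 is lower under FR in pith by group means, with overlapping libraries, and also differs between 30 and 48 h in WL pith.

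The other named members of the light comparison were less stable. Solyc03g095310 had 63.5, 101, 57.4 and 56.8 under FR and 24.8, 24.7 and 18.9 under WL at 30 h in Moneymaker pith, and 11.98, 13.5, 8.73 and 11.4 under FR and 2.86, 4.31 and 4.48 under WL at 48 h. FR libraries exceeded WL libraries at each time. Its log2 fold change was 1.44 ± 0.36 in Moneymaker (adjusted p = 0.0383, limma) and 1.34 ± 0.38 in M82 (adjusted p = 0.0336). The Moneymaker call was lost with the replicate block (adjusted p = 0.117) and with a pseudocount of 0.25 (adjusted p = 0.0739), and its adjusted p reached 0.124 with single libraries left out. Solyc08g060920 ran from 16.2 to 50.4 (median 26.6) in Moneymaker FR pith, against 46.4 to 178 (median 100.0) in WL pith. Its log2 fold change was -1.76 ± 0.40 in Moneymaker (adjusted p = 0.0152) and -1.49 ± 0.42 in M82 (adjusted p = 0.034), and the Moneymaker call was lost without WL 48 h replicate 4 (adjusted p = 0.0845), WL 30 h replicate 5 (0.0532) or WL 30 h replicate 6 (0.0619).

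In M82 the other named members were Solyc03g110990 and Solyc06g006080. Solyc03g110990 had 1303 and 862 at 30 h and 214, 431 and 814 at 48 h under FR, against 42.0 to 727 with a median of 121 in 9 WL pith libraries. The groups overlapped through WL 30 h replicate 2, and the log2 fold change was 2.29 ± 0.47 in M82 (adjusted p = 0.00266, limma), beside 1.71 ± 0.45 for Moneymaker (adjusted p = 0.0613). In the fit of the M82 pith groups alone the adjusted p was 0.0813. Solyc06g006080 had 113 and 95.6 under FR at 30 h, against 238, 346, 462 and 501 under WL. At 48 h it had 33.98, 33.1 and 40.6 under FR, against 66.6, 83.7, 56.8, 154 and 345 under WL. Every FR library lay below every WL library of its time, and the log2 fold change was -1.72 ± 0.34 in M82 (adjusted p = 0.00142), beside -0.80 ± 0.32 for Moneymaker (adjusted p = 0.454).

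**Figure D5:**
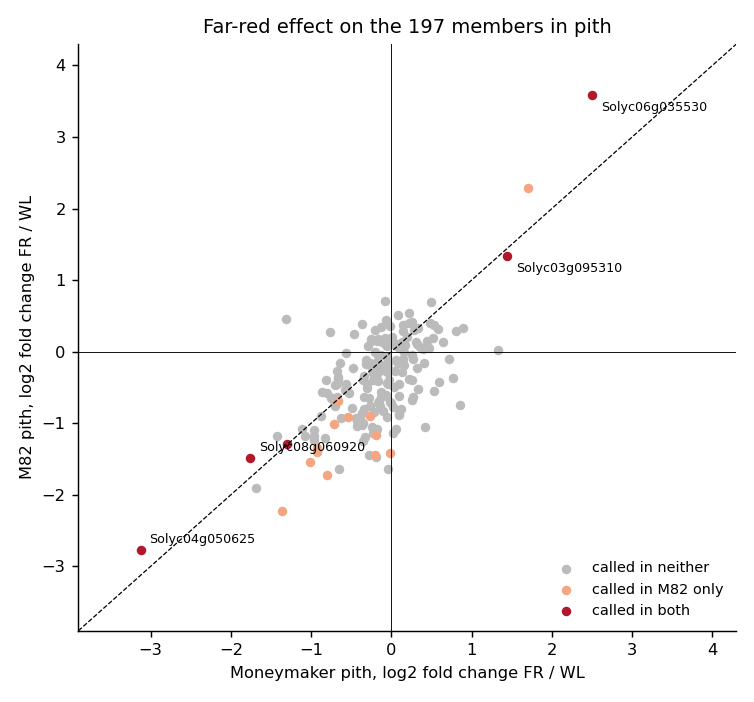
Log2 fold change FR / WL of the 197 members in pith, averaged over 30 and 48 h, for Moneymaker (horizontal axis) and M82 (vertical axis); dark red points were called in both cultivars, light red points in M82 only and grey points in neither, and the dashed line marks equal changes. The 5 members called in both lie in the same direction in each cultivar, from -3.13 to 2.50 in Moneymaker.

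Whether light changed the difference between 30 and 48 h in pith was tested as an interaction. In Moneymaker 0 members were called with limma, against 0% of all tested genes, and in M82 0 were called, against 0%. edgeR and DESeq2 likewise called 0 members in either cultivar. At an unadjusted p below 0.05, limma, edgeR and DESeq2 passed 4, 1 and 4 members in Moneymaker and 12, 29 and 32 in M82. A share of about 0.05 of members would pass by chance alone. The median over members of the FR minus WL difference was -0.21 in Moneymaker (median SE 0.78) and 0.47 in M82 (median SE 0.82), so effects of this size in single genes were not detectable here. In M82 this median moves with the label-discordant libraries: without the 12, the median difference between 30 and 48 h was 1.60 under FR and 1.62 under WL.

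In internodes, FR minus WL uses the libraries that chose the members and is given without a test. Its medians over members at 6, 24, 30 and 48 h were -0.09, -0.22, -0.13 and -0.20 in Moneymaker, and 0.00, -0.05, -0.36 and 0.15 in M82. The Moneymaker 48 h value was 0.27 without the label-discordant libraries, a change of sign, and the M82 6 h value was then -0.18, with 127 members lower under FR, against 98 with all libraries.

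By the chromosome number in their identifiers, members were spread over all chromosomes. Chromosome 12 held 22 members, 11.2% of the set, against 6.47% of the 18429 genes above the level floor, and chromosome 11 held 7, or 3.55% against 6.88%. In 16 cases a member and the next identifier among the genes above the level floor were both members. Among them was a run of 4 from Solyc08g082640 to Solyc08g082670. How many such cases would arise in any set of this size was not computed. Reads of overlapping or near-identical genes cannot be told apart from the table. Solyc12g045035 and Solyc12g045037, which form 1 of the 16 cases, had equal group means in most of the 24 groups. Both are counted as members and on chromosome 12.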

How the data were processed

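Values are deposited signals: read counts per gene, each library divided by a factor of the authors, in a single table of 23050 genes. The submitters' processing notes list the tools FastQC, Trim Galore, featureCounts and STAR. How the factors were set, the build, the annotation and the strandedness of counting: not given in the sources used here. Within each library, values below 2000 reads came out as whole multiples of 1 read (within 0.02 of a read) in 100% of cases. Every column had a sample (0 without one). Sequencing depth sets the precision of low values.

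Members and comparisons were chosen with earlier results of these data known. The values are not raw counts, so limma 3.58.1 (trend and robust moderation, R 4.3.3) was run on log2(value + 1), with 19029 genes of mean value at least 1 in 1 fit of 24 group means. Adjustment was by Benjamini-Hochberg over all of them, with calls at an adjusted p below 0.05. Counts at an unadjusted p below 0.05 were made for members only, so no share of all tested genes stands beside them. Chance alone would pass a share of about 0.05 of members at that p. Counts of called members in alternative fits or with libraries left out also stand without shares of all tested genes. All fold changes use the log2(value + 1) scale, on which low genes appear to change less than they did. edgeR 4.0.16 and DESeq2 1.42.0 were run on the recovered reads as alternatives, beside another pseudocount, no filter, TMM scaling, a replicate block, the contrast's groups alone and each library left out. Leaving out the 12 label-discordant libraries together was chosen after seeing the data.

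Named genes were the 2 members with the smallest p per test and direction, the largest in the choosing difference and in pith, those at the threshold, and the 2 nearest 0 in pith. Planned lists of clock, starch, light signalling, cell wall and flavonoid genes, and promoter motifs, could not be applied without names or sequences, so those groups were not analysed here.

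Replicate numbers pair libraries by label, since the series design says that a number marks plants of 1 batch, although replicates 7 and 8 of Moneymaker internodes at 48 h carry codes with lower numbers. Residuals of libraries of the same cultivar and light correlated over genes with a mean of 0.12 for the same number (142 pairs) and -0.03 for other numbers (651 pairs). Tested on simulated data for the Moneymaker FR internode contrast (18940 genes), limma recovered 59% of genes changed 2-fold and 89% of those changed 4-fold, with 8 false calls.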

Additional observations from a re-analysis of the deposited data

Results flagged for a closer look

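In groups of 4 to 10 libraries, the level of the set and 7 members were examined for a single library far from the others of its group. This gave 96 tests, each of 1 measure in 1 group, of which chance would mark about 1 in 20, and 8 were marked. The set level of Moneymaker WL internode 48 h replicate 1 was 5.0, against 3.10 to 3.23 in the other 3 libraries, and Solyc03g083770 was also apart there, at 8.63 against 2.83 to 3.72 on the log2(value + 1) scale. Solyc01g100230 stood at 3.28 in Moneymaker FR pith 48 h replicate 4, against 2.44 to 2.56 in the others. Solyc06g035530 was at 3.72 in Moneymaker FR internode 48 h replicate 4, below the others at 4.33 to 4.65. Solyc04g050625 was apart in 3 groups. It was at 2.66 in M82 WL internode 30 h replicate 1, which the cultivar score placed with Moneymaker, against 4.61 to 5.09. It was at 0.77 in M82 WL pith 48 h replicate 4, against 2.88 to 3.54, and at 2.28 in Moneymaker FR internode 48 h replicate 3, against 1.15 to 1.54. Solyc12g006850 was at 1.91 in Moneymaker FR internode 48 h replicate 1, against 0.79 to 0.97 in the others.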

How the results depend on the processing

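With each library left out in turn, called members numbered 152 to 163 in Moneymaker and 95 to 126 in M82 for FR internodes, 142 to 156 in Moneymaker and 95 to 134 in M82 for pith at 30 h against 48 h, and 2 to 5 in Moneymaker and 5 to 25 in M82 for FR against WL in pith (lowest without M82 FR pith 30 h replicate 3, highest without WL pith 48 h replicate 4). The 7 comparisons with 0 calls stayed at 0. With 1 library left in a group, its spread was taken from the other groups. Counts moved by over 1.5 times in these settings: 60 for M82 pith at 30 h against 48 h and 3 for FR against WL in M82 pith, both with the contrast's groups alone; 1 for 30 h against 6 h in M82 with the same groups; 8 in Moneymaker and 35 in M82 with DESeq2 for FR against WL in pith; 8 for M82 without the libraries against their time label and 11 without the 12 libraries. Leaving out single libraries also moved the counts of FR against WL in pith by over 1.5 times in both cultivars. Set size was 80 at a threshold of 1.5 and 352 at 0.75. The cause of these shifts was not tested. The fit with a replicate block, given the pairing by batch, called 157 and 131 members in FR internodes of Moneymaker and M82, 152 and 129 in pith by time, 5 and 17 in pith by light and 0 in the other 7; apart from Solyc03g095310 in Moneymaker it ended no call of a named member. Of the values recomputed for named members, 370 kept their call and 18 lost it, and no direction turned. Values of few reads are less precise, and whether depth decided any call was not tested.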
